A study of Homo sapiens with 12 samples.

Results

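MX1, MX2, RSAD2, CMPK2, IFI6, IFI27, IFI35, IFI44, IFI44L and BST2 are interferon-stimulated genes whose products act against viruses or were named for their induction by interferon. They are 10 of the 25268 gene symbols in an RNA-seq table from HEK293 cells, an established human embryonic kidney line. The genes were taken from the table by symbol. They were selected on the measured RBMX-against-control values of these same 12 libraries, so every difference between those groups below is a description of the genes and not a test of them.

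The study overexpressed RBMX, an RNA-binding protein that the paper places in both nucleus and cytoplasm. It used transient transfection of 2 µg of plasmid carrying His-HA-tagged RBMX. The control was the mock empty vector, which the labels also call wild type. Both kinds of cells therefore received a plasmid by lipofection, and both were collected 48 h later after cycloheximide. Lysates were separated on sucrose gradients, in which mRNAs bound by many ribosomes travel farthest and are collected as polysomal RNA. For each of the 2 vectors 3 cultures were processed, and each gave a total RNA library, pooled from all fractions of its gradient, and a polysomal RNA library. This gave 12 libraries in 4 groups of 3. Levels are FPKM, fragments scaled to transcript length and to the mapped total of the library, which are thus per length and can be set side by side between genes. The number of fragments behind them is unknown.

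Interferons are secreted proteins that cells make after sensing foreign nucleic acid. They bind receptors on the same and neighboring cells, and the kinases JAK1 and TYK2 then activate transcription factors such as STAT2, which binds with IRF9 to a DNA element called the interferon-stimulated response element. The genes switched on there restrict viruses at different steps. The Mx proteins are dynamin-like GTPases that act on viral nucleocapsids, viperin (RSAD2) makes a nucleotide that stops viral RNA polymerases, and tetherin (BST2) holds budding virions at the cell surface.

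The promoters of these genes show the element that interferon signaling uses, and these sequences are printed to place the genes in the pathway. In RefSeq promoter windows on GRCh38.p14, from 250 bases before to 50 bases after each start, the core of the element was searched on both strands as GAAANNGAAA, where N is any base. It occurred in the windows of BST2, IFI27, IFI44, IFI44L, IFI6, MX1 and RSAD2, 7 of the 9 genes with an entry, against 23 of 40 (57.5%) of the other interferon pathway genes listed further on, 4.38% of all 27305 genes and 3.57% of all 35116 windows. CMPK2 and IFI35 had none of these letters in their windows, and MX2 has no entry. Windows of 30 bases around the cores follow, on the strand of each gene, with the fixed letters of the core in capitals (TTTC where the core reads on the other strand).
IFI6, chr1:27672329-27672358, minus strand: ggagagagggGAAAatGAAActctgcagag
IFI6, chr1:27672288-27672317, minus strand: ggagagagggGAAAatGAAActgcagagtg
IFI6, chr1:27672266-27672295, minus strand: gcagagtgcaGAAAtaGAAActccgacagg
IFI44L, chr1:78620274-78620303, plus strand: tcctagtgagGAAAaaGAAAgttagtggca
IFI44L, chr1:78620365-78620394, plus strand: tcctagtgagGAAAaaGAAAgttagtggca
IFI44, chr1:78649761-78649790, plus strand: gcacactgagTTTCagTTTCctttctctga
RSAD2, chr2:6877622-6877651, plus strand: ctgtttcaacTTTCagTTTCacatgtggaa
IFI27, chr14:94110625-94110654, plus strand: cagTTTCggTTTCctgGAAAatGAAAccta
BST2, chr19:17405738-17405767, minus strand: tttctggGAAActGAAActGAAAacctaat
MX1, chr21:41420559-41420588, plus strand: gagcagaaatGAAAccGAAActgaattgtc
MX1, chr21:41431844-41431873, plus strand: ggtcactctgTTTCtcTTTCcgtgaataaa

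IFI6 carried 3 of these cores, and both IFI44L windows held the same 30 letters. IFI27 had a core on each strand within a single window, and BST2 had 2 overlapping ones in a row. The first MX1 core lay 11 bases after its start, and the others lay 18 to 196 bases before a listed start. In the GENCODE v29 annotation of GRCh38 the BST2 window fell in exons of MVB12A, the gene transcribed the other way, and of BISPR, and the RSAD2 and IFI27 windows fell in introns of those genes' own annotated models. A core of the related gamma-activated site, TTCNNNGAA, was found in 4 of the 9 genes (BST2, IFI27, IFI35 and MX1), in 30.0% of the other pathway genes and in 9.38% of all genes. Matches of both motifs can overlap and were counted separately.

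RBMX itself is the check of the labels. In total RNA it stood at 147, 145 and 108 FPKM in the control libraries and at 1731, 2073 and 1460 in the RBMX libraries, a ratio of means of 13.2, and in polysomal RNA the ratio was 9.36. All 10 HEK293 markers (among them KRT8, KRT18 and VIM) were detected above the filter, with VIM at up to 577 FPKM. The libraries correlated between replicates of a group with Spearman coefficients of 0.924 to 0.953. Control replicate 3 stood apart in HEK293 markers, with a summed level of 483 in total and 445 in polysomal RNA, against highest sums of 961 and 1022 in its groups and 902 to 1045 in the RBMX libraries.

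All 10 antiviral genes were higher in each RBMX library than in each control library, in total and in polysomal RNA. Such a separation with RBMX above occurred in 11.9% of the 14676 genes tested in total RNA and in 10.0% in polysomal RNA, and since it is the contrast the genes were chosen on, nothing is read from the count. The ratio of mean FPKM ran from 3.04 for MX1 to 15.6 for MX2 in total RNA, with a median of 6.61, and from 3.01 to 18.2 for the same genes in polysomal RNA, with a median of 6.50. On the log2(FPKM + 1) scale, which understates changes of low genes, the median difference was 2.44 in total and 2.45 in polysomal RNA, against 0.00 over all genes tested in each.

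By limma with Benjamini-Hochberg adjustment over all 14676 genes, 0 of the 10 passed the threshold of 0.05 in either fraction, where 0.164% and 0.0477% of all genes did. At an unadjusted p under 0.05 all 10 did in each fraction, with 2756 genes (18.8%) in total and 1715 (11.7%) in polysomal RNA. The genes were chosen on this contrast, so nothing is read from that count. Replicate 3, described below, was the lowest of its group for all 10 genes in 3 of the 4 groups and for 9 in the control polysomal group. Over 14168 genes it was the lowest in 42.5% in control total and 46.4% in control polysomal RNA. In RBMX cells these shares were 32.8% and 28.8%. Ranked by the log2 difference among 14168 genes other than small RNA genes, RSAD2 was number 4 in total and 3 in polysomal RNA, and MX1 was number 75 and 78.

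**Figure D1:**
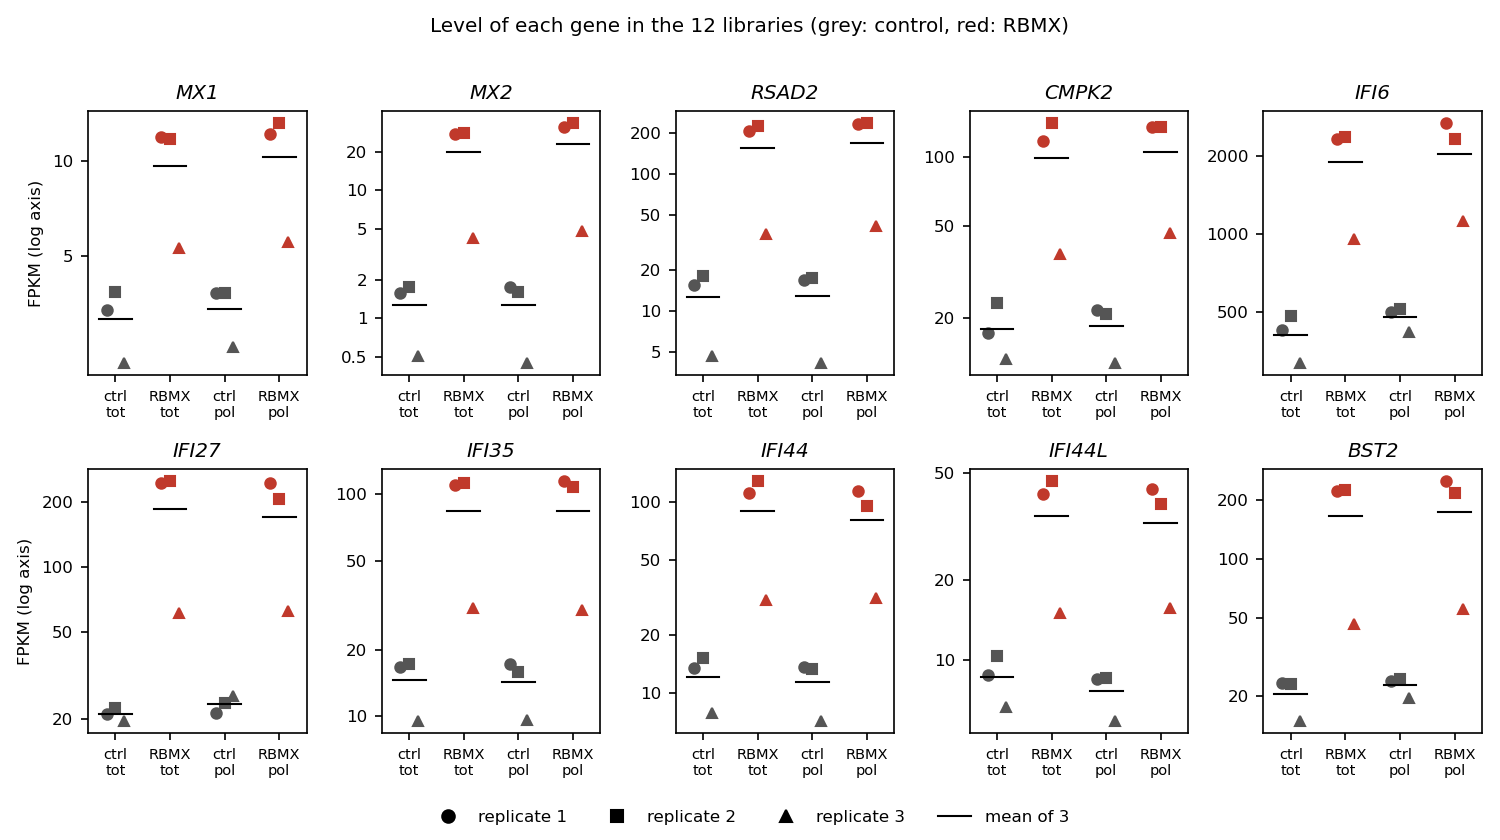
FPKM of the 10 genes in each library on log axes, with a panel per gene and the groups control total, RBMX total, control polysomal and RBMX polysomal. Points are replicates and bars are the mean of 3. In every panel the RBMX points lie above the control points, and RBMX replicate 3 (triangle) lies below replicates 1 and 2.

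The Mx GTPases lie side by side on chromosome 21, MX2 at chr21:41361943-41409390 and MX1 at chr21:41420304-41459214 (GRCh38, GENCODE v29), both on the plus strand and 10914 bases apart. MX1 acts in the cytoplasm against influenza and other viruses. In total RNA it stood at 3.38, 3.85 and 2.30 FPKM in control and at 11.9, 11.8 and 5.34 in RBMX cells. In polysomal RNA the values were 3.82, 3.82 and 2.60 against 12.1, 13.2 and 5.57. MX1 had the lowest ratio of the 10 genes in both fractions, with a log2 difference of 1.30 (SE 0.32) in total and 1.29 (SE 0.33) in polysomal RNA.

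MX2, which acts at the nuclear envelope against retroviruses and herpesviruses, was the least abundant of the 10 genes in control cells. It stood at 1.57, 1.74 and 0.503 FPKM in control and 27.4, 27.9 and 4.22 in RBMX total RNA. The polysomal values were 1.74, 1.61 and 0.445 against 31.1, 33.4 and 4.78. Its log2 difference was 2.89 (SE 0.73) in total and 3.09 (SE 0.76) in polysomal RNA. The order of the pair depended on the library. MX2 was below MX1 in all 6 control libraries, at 0.171 to 0.464 of its level, and above it in replicates 1 and 2 of RBMX cells in both fractions, at up to 2.56 times its level. In RBMX replicate 3 it was still below MX1, at 0.791 in total and 0.859 in polysomal RNA.

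RSAD2 and CMPK2 are also neighbors, on chromosome 2 (RSAD2 at chr2:6865806-6898239 on the plus strand, CMPK2 at chr2:6840570-6866635 on the minus strand). Their products act in one route, since CMPK2 is a mitochondrial nucleotide kinase for CMP and UMP and viperin converts CTP. Their models overlap head to head by 830 bases, and the library kit named for the study does not mark the strand, so reads from the overlap cannot be assigned to one gene and both values are uncertain to that extent. RSAD2 stood at 15.6, 17.9 and 4.69 FPKM in control and at 207, 225 and 36.6 in RBMX total RNA. In polysomal RNA it stood at 16.8, 17.4 and 4.18 against 231, 235 and 42.0. Its log2 difference of 3.32 (SE 0.85) in total and 3.48 (SE 0.86) in polysomal RNA was the largest of the 10 with the pseudocount of 1. With a pseudocount of 0.1, MX2 was above it, at 3.60 against 3.43 in total and 3.85 against 3.61 in polysomal RNA.

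CMPK2 stood at 17.3, 23.3 and 13.3 FPKM in control and 117, 140 and 38.0 in RBMX total RNA, and at 21.6, 20.8 and 12.7 against 134, 134 and 46.6 in polysomal RNA. The log2 difference was 2.22 (SE 0.53) in total and 2.33 (SE 0.47) in polysomal RNA. As with the Mx pair, the order changed within the libraries. RSAD2 was below CMPK2 in all 6 control libraries, at 0.328 to 0.903 of its level, above it in RBMX replicates 1 and 2, at up to 1.76 times, and below it again in RBMX replicate 3, at 0.962 in total and 0.900 in polysomal RNA.

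IFI6 and IFI27 encode small hydrophobic proteins of one family, IFI6 in the endoplasmic reticulum and mitochondria, where it opposes cell death and flavivirus replication, and IFI27 in mitochondria and the nuclear envelope. IFI6 (chr1:27666061-27672218, minus strand) was by far the most abundant of the 10 genes. It stood at 425, 482 and 318 FPKM in control and at 2343, 2383 and 959 in RBMX total RNA. In polysomal RNA it stood at 499, 516 and 417 against 2687, 2328 and 1124. The log2 difference of 2.12 (SE 0.41) in total and 2.01 (SE 0.37) in polysomal RNA was in the lower part of the list.

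IFI27 (chr14:94104836-94116698, plus strand) was nearly level between control libraries, at 21.0, 22.5 and 19.5 FPKM in total and 21.3, 23.6 and 25.5 in polysomal RNA. In RBMX cells it stood at 244, 249 and 61.7 in total and 243, 206 and 62.9 in polysomal RNA. It was the only one of the 10 genes whose control replicate 3 was not the lowest of its group in polysomal RNA. The log2 difference was 2.84 (SE 0.56) in total and 2.60 (SE 0.52) in polysomal RNA. Its relatives flank it. IFI27L1 ends 990 bases away on the same strand and stood at 26.1 ± 4.03 FPKM (SD, n = 3) in control and 26.2 ± 1.16 in RBMX total RNA, a log2 difference of 0.02 (SE 0.11). IFI27L2, 11081 bases away on the other side, stood at 42.5 ± 4.10 and 41.5 ± 1.33, a log2 difference of -0.03 (SE 0.08). In polysomal RNA the differences were -0.10 and -0.14, and neither gene passed the threshold in either fraction.

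IFI35, IFI44 and IFI44L were named for their induction. IFI35 is a leucine zipper protein that pairs with NMI, and IFI44 and IFI44L are related proteins whose mode of action is less understood. IFI35 (chr17:43006725-43014456, plus strand) stood at 16.8, 17.3 and 9.54 FPKM in control and at 110, 112 and 30.8 in RBMX total RNA, a log2 difference of 2.29 (SE 0.56). The polysomal values were 17.2, 15.9 and 9.68 against 115, 108 and 30.3, a difference of 2.30 (SE 0.56). VAT1 ends 149 bases from the end of IFI35 on the other strand, and stood at 78.2 ± 14.3 FPKM (SD, n = 3) in control and 80.0 ± 8.38 in RBMX total RNA.

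IFI44L (chr1:78619922-78646145) and IFI44 (chr1:78649796-78664078) lie on the plus strand 3651 bases apart. IFI44 stood at 13.5, 15.2 and 7.82 FPKM in control and 111, 129 and 30.6 in RBMX total RNA, and its polysomal values were 13.7, 13.4 and 7.12 against 114, 95.3 and 31.6. IFI44L stood at 8.85, 10.4 and 6.69 in control and 41.6, 46.6 and 15.0 in RBMX total RNA, with polysomal values of 8.53, 8.58 and 5.94 against 43.7, 38.3 and 15.7. IFI44 was above IFI44L in all 12 libraries, by 1.17 to 1.60 times in control and 2.02 to 2.77 times in RBMX cells, and these ranges do not overlap. The log2 differences between the vectors were 2.60 (SE 0.60) for IFI44 and 1.75 (SE 0.45) for IFI44L in total RNA, and 2.58 (SE 0.54) and 1.84 (SE 0.40) in polysomal RNA.

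BST2 (chr19:17402939-17405648, minus strand), the membrane tether of budding virions, stood at 23.2, 23.0 and 14.8 FPKM in control and at 223, 225 and 46.2 in RBMX total RNA. In polysomal RNA it stood at 23.9, 24.3 and 19.4 against 250.1, 217 and 55.5. The log2 difference was 2.68 (SE 0.66) in total and 2.64 (SE 0.59) in polysomal RNA. MVB12A starts 74 bases from the BST2 start and runs the other way, so that the window printed above lies in models of MVB12A and BISPR. MVB12A, a sorting factor for endosomal membrane proteins, stood at 46.5 ± 3.93 FPKM (SD, n = 3) in control and 47.8 ± 1.30 in RBMX total RNA, a log2 difference of 0.04, and did not pass the threshold in either fraction.

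The 14 nearest neighbors in the table that are not among the 10 were matched by symbol, which misses genes listed under another symbol. Their distances ran from 74 bases for MVB12A to 4309804 bases for LINC01361, next to IFI44. Of the 14, 7 passed the filter and 0 were called by limma in either fraction, with 0 at an unadjusted p under 0.05. TMPRSS2, 5337 bases from the end of MX1, had the largest difference of these in total RNA, at 0.458 ± 0.059 FPKM (SD, n = 3) in control and 0.880 ± 0.361 in RBMX cells, a log2 difference of 0.35 (SE 0.15) with overlapping groups. The other 7 stood at no more than 0.545 FPKM. All 3 RBMX libraries were above all control libraries for 4 of them in total RNA (FAM3B, LINC00487, FGR and PLVAP) and for 4 in polysomal RNA (FAM3B, RNF144A-AS1, FGR and PLVAP). The share of such separations was taken only over genes that passed the filter, so nothing is read from these counts.

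**Figure D2:**
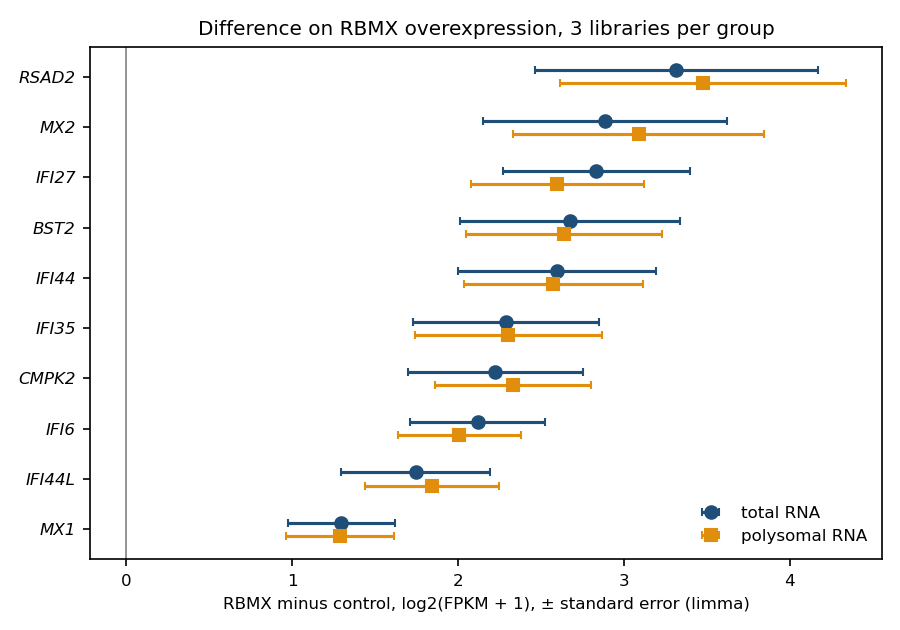
Difference between RBMX and control cells on the log2(FPKM + 1) scale, with the limma standard error, for each gene in total RNA (circles) and polysomal RNA (squares), 3 libraries per group. The order runs from RSAD2 at 3.32 to MX1 at 1.30 in total RNA, and the standard errors of neighbors in this order overlap.

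In this order all 9 gaps between neighbors in total RNA were smaller than the larger standard error of the pair. In polysomal RNA 8 of 9 were, and the gap of 0.55 between IFI44L and MX1 exceeded it. The genes moved closely together. The correlation of log2(FPKM + 1) between any pair of the 10 ran from 0.952 to 0.998 over the 12 libraries, which share the group difference, and from 0.971 to 0.999 within the 6 RBMX libraries, where it follows the low replicate 3. Within the 6 control libraries it ran from 0.624 to 0.998 once IFI27 was left out, and down to -0.20 with it.

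Replicate 3 stood apart in these genes in both vectors. In RBMX cells its level was 15.3% to 45.1% of the mean of replicates 1 and 2 in total RNA, with a median of 26.6%, and 14.9% to 44.8% in polysomal RNA, with a median of 29.1%. MX2 was lowest and all 10 genes lay under the 5th percentile of 14150 genes, which was 74.8% and 70.4%. RBMX itself was at 76.8% and 85.9% in the same libraries. In control cells the median was 63.9% in total and 64.0% in polysomal RNA, with RSAD2 lowest at 28.0% and 24.4%, and 4 and 2 of the 10 genes lay under the 5th percentile. What set replicate 3 apart was not tested.

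RBMX replicates 1 and 2 stood at 3.70 to 21.9 times the control mean in total RNA and replicate 3 at 1.68 to 3.32 times. In polysomal RNA these ranges were 3.55 to 26.4 and 1.63 to 3.78. Control replicate 3 was also low. Against it alone RBMX replicate 3 stood at 2.24 to 8.39 times in total and 2.14 to 10.7 times in polysomal RNA. The correlations between libraries did not show that the replicate numbers pair the vectors, and they cannot exclude it. Replicates 1 and 2 over the mean of control replicates 1 and 2 gave 3.27 to 16.7 and 3.31 to 19.2, above the replicate 3 value for all 10 genes in both fractions. Over the mean of the 3 control libraries, MX1 was lowest and MX2 highest in each RBMX library. Without RBMX replicate 3, limma called 9 of the 10 genes in each fraction, with RSAD2 the exception, where 1.21% of all genes passed in total and 0.859% in polysomal RNA. Without replicate 3 of both vectors, a setting chosen after seeing the data, it called 10 of 10 in each, where 2.09% and 2.37% of all genes passed. The genes were chosen on this contrast, so nothing is read from these counts.

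**Figure D3:**
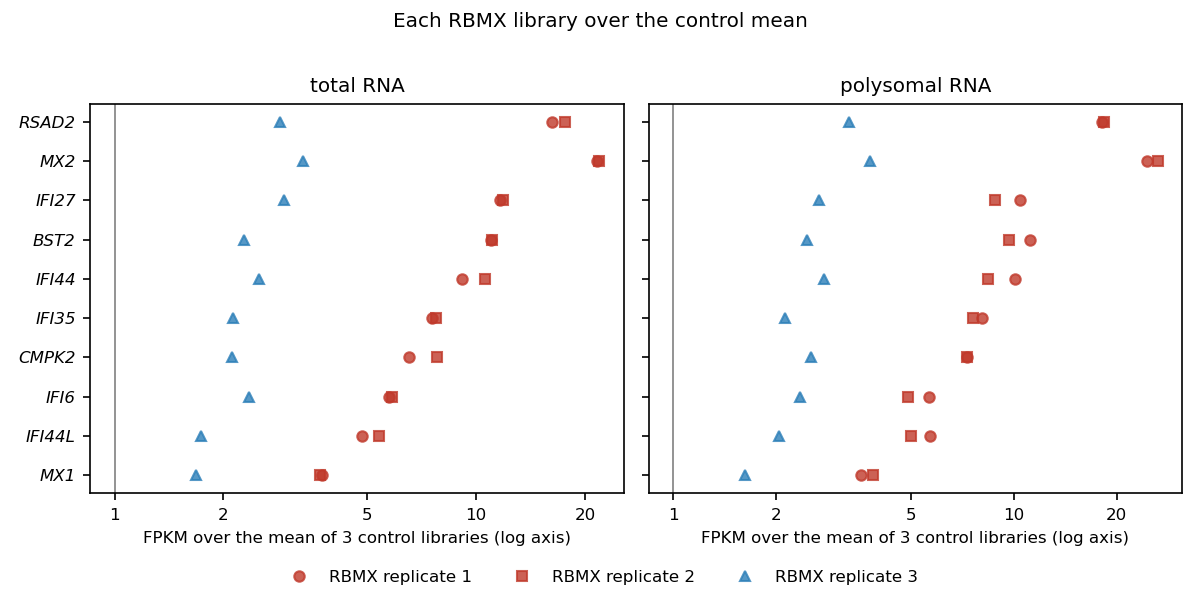
FPKM of each gene in each RBMX library divided by the mean of the 3 control libraries of the same fraction, on log axes. RBMX replicates 1 and 2 (red circles and squares) lie between 3.55 and 26.4, and replicate 3 (blue triangles) between 1.63 and 3.78.

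Whether these mRNAs were carried on polysomes in proportion to their total level is a comparison the choice of genes did not use. None of the 10 passed the threshold between polysomal and total RNA in either vector. In control cells the difference on the log2(FPKM + 1) scale ran from -0.15 for IFI44L (95% interval -0.65 to 0.36, adjusted p = 0.945 by limma) to 0.24 for IFI6 (-0.23 to 0.71, adjusted p = 0.829), and 0.0818% of all genes passed the threshold. In RBMX cells it ran from -0.12 for IFI44 (-1.95 to 1.71, adjusted p = 0.950 by limma) to 0.19 for MX2 (-2.30 to 2.68, adjusted p = 0.936), and 1.34% of all genes passed. None of the 10 had an unadjusted p under 0.05 in either vector, where 8.04% (control) and 23.0% (RBMX) of all genes did. In none of the 10 were the groups apart, where 14.9% and 30.8% of all genes had them apart. The RBMX cultures differ in level, and the intervals there are wide.

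Each gradient gave both a total and a polysomal library, so the difference can also be read between libraries of the same number. This takes the number as the mark of a culture, which the correlations between libraries did not show for replicates 1 and 2. For IFI6 it was 0.23, 0.10 and 0.39 in control replicates 1 to 3 and 0.20, -0.03 and 0.23 in RBMX replicates. For MX2 it was 0.09, -0.07 and -0.06 in control and 0.17, 0.25 and 0.15 in RBMX replicates, a mean of 0.19 ± 0.05 (SD, n = 3). MX1 and RSAD2 were likewise above 0 in 3 of 3 RBMX replicates, and IFI6, IFI27 and BST2 in 3 of 3 control replicates, while IFI44L was below 0 in 3 of 3 control replicates, at -0.05, -0.25 and -0.15. The value farthest from 0 was that of IFI44 in RBMX replicate 2, at -0.43. With the replicate block the standard errors fell to 0.05 to 0.11 in control and 0.05 to 0.20 in RBMX cells. The adjusted p by limma was 0.247 to 0.912 and 0.197 to 0.972, so none of the 10 passed, where 6 and 4 of all genes tested did. MX2 in RBMX cells had an unadjusted p under 0.05. The share of all genes with such a p was not taken in these fits, so nothing is read from it.

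**Figure D4:**
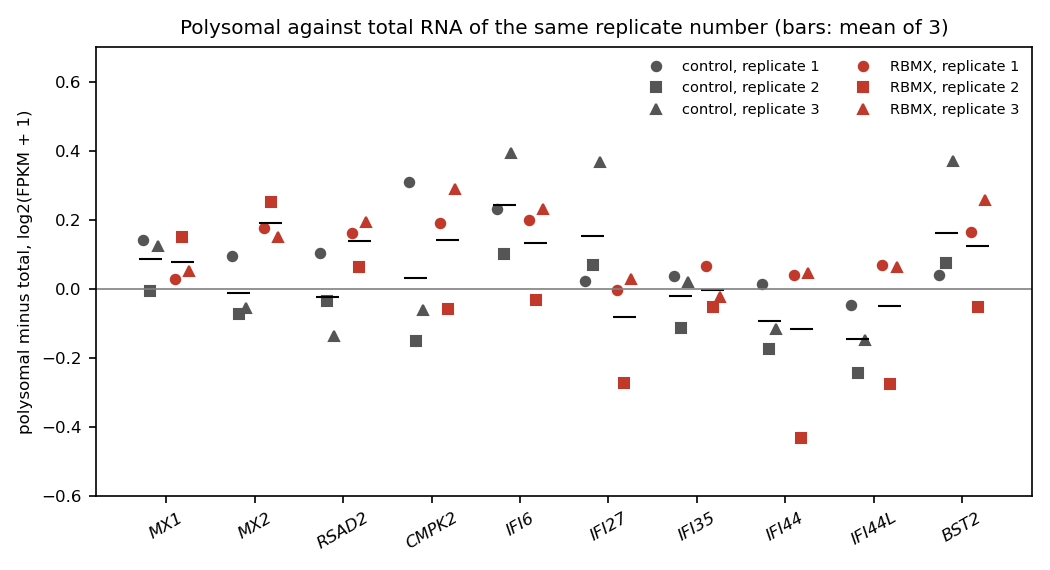
Polysomal minus total RNA on the log2(FPKM + 1) scale in libraries of the same replicate number of control (grey) and RBMX cells (red), with bars at the mean of 3. The points lie between -0.43 and 0.39, on both sides of 0.

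In the fit without a block, the difference between the vectors varied between the fractions by less than its standard error for each of the 10 genes. Polysomal minus total, it ran from -0.24 (SE 0.82) for IFI27 to 0.20 (SE 1.13) for MX2, with a median of 0.00. The interaction in the fit of all 12 libraries called 0 of the 10 genes, where 0.0204% of all genes passed. None of the 10 had an unadjusted p under 0.05, where 0.600% of all genes did. The standard errors were 0.49 to 1.29 in this fit. With the replicate block they were 0.07 to 0.16. MX2 at 0.20 (SE 0.07), RSAD2 at 0.16 (SE 0.08) and IFI27 at -0.24 (SE 0.13) then exceeded their standard error, and the other genes did not. In the blocked fit 0 of the 10 were called, where 5 of all genes tested passed. With so few genes passing, this count does not set the 10 apart. Of the 10, 1, MX2, had an unadjusted p under 0.05. The share of all genes with such a p was not taken in the blocked fit, so nothing is read from that p.

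The rest of the interferon pathway was read from a list of 54 other genes, of which 52 passed the filter. The list was chosen with earlier results of these data known, so nothing is read from the counts that follow. By limma 0 of the 52 passed the adjusted threshold in either fraction. At an unadjusted p under 0.05 there were 46 in total and 44 in polysomal RNA, each higher in RBMX cells. Of all genes tested, 18.8% and 11.7% had such a p. The groups were apart with RBMX above for 46 and 45 genes, against the 11.9% and 10.0% of all genes given above, and the median log2 difference was 1.37 and 1.41. RNA of a culture cannot tell a few strongly responding cells from many weakly responding ones, here and for the 10 genes.

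Among the secreted interferons, IFNB1 stood at 1.22, 0.867 and 0.813 FPKM in control and 19.2, 22.1 and 3.19 in RBMX total RNA. IFNL1, a type III interferon, stood at 1.49, 1.06 and 1.13 against 30.2, 32.5 and 4.33. IFNA1 was listed at 0 in all control libraries and at up to 0.135 in RBMX cells, and it did not pass the filter. For both interferons that passed, RBMX replicate 3 was the lowest of its group in both fractions, whereas control replicate 3 was not always the lowest.

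The receptors and kinases had the median log2 difference nearest to 0 of the roles, -0.03 in total RNA over 5 genes. TYK2, a receptor kinase, differed by 0.27 (SE 0.10) in total RNA, the receptor chain IFNAR1 by -0.18 (SE 0.10) and JAK1 by 0.10 (SE 0.29). Among the transcription factors, STAT2 acts downstream of them. STAT2 stood at 15.6, 14.2 and 19.8 FPKM in control and 65.8, 64.6 and 23.7 in RBMX total RNA, a log2 difference of 1.45, and IRF7 and IRF1 differed by 1.42 and 1.18. Nucleic acid sensors and adaptors had a median of 1.08 over 7 genes. DHX58, DDX58 and IFIH1, which sense viral RNA, differed by 2.36, 1.84 and 1.67, whereas the adaptor MAVS differed by -0.05.

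The 32 other interferon-stimulated genes had their RBMX libraries above all control libraries in both fractions. Of all genes tested, 11.9% in total and 10.0% in polysomal RNA had this. The list was chosen with earlier results known, so nothing is read from the count. Their median log2 difference was 1.48 in total RNA. OAS2, which makes the activator of RNase L, differed by 3.64, the apoptosis factor XAF1 by 3.29 and the translation inhibitor IFIT2 by 3.04. These values are of the same order as those of RSAD2 and MX2.

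**Figure D5:**
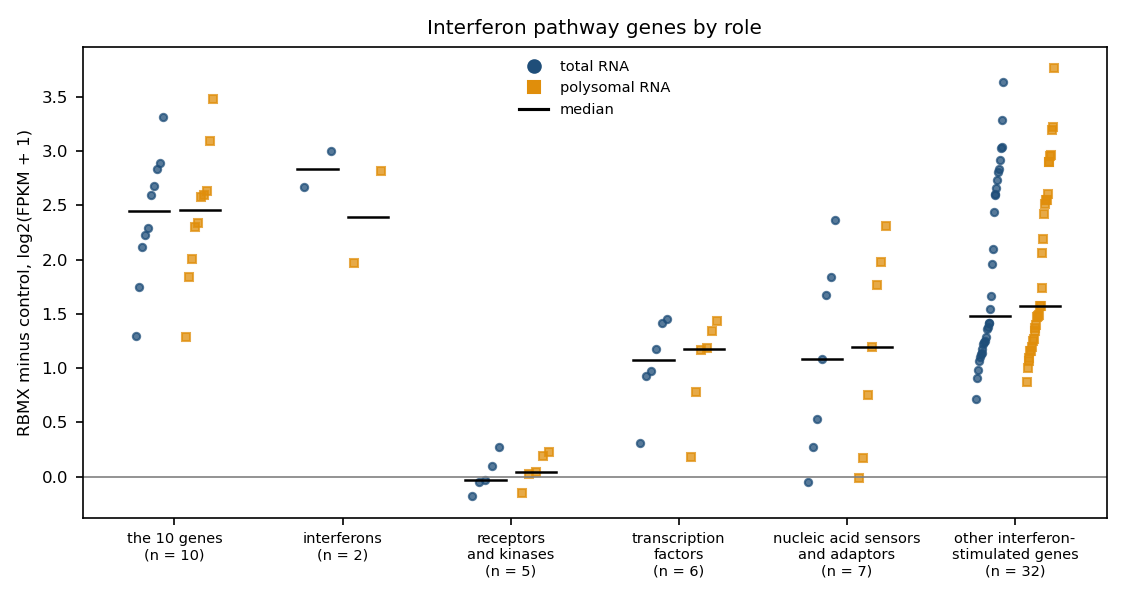
Difference between RBMX and control cells on the log2(FPKM + 1) scale for the 10 genes and for the other pathway genes by role, in total (circles) and polysomal RNA (squares), with bars at the median of each. Receptors and kinases lie around 0 with a median of -0.03 in total RNA, and the other interferon-stimulated genes reach 3.64.

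The genes whose levels followed the 10 most closely were found by Pearson correlation with their mean standardized profile, over 12 libraries and among 13677 genes whose mean FPKM reached 1. They were OAS2, IFITM3, IFITM1, ISG15 and PARP10, with rounded coefficients from 0.998 for PARP10 to 1.00 for OAS2. IFITM3, which blocks virus entry, stood at 95.5 ± 27.3 FPKM (SD, n = 3) in control and 593 ± 332 in RBMX total RNA, and the ubiquitin-like modifier ISG15 at 298 ± 71.3 and 1404 ± 694. PARP10, an ADP-ribosyltransferase that the pathway list did not hold, stood at 2.03 ± 0.92 and 23.8 ± 15.5. Since these correlations are shared across 2 groups and a low replicate, they describe likeness and no more.

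Markers of other cell types were mostly low. Of 8 blood and immune markers 3 passed the filter. The summed level of the 8 was 7.01 to 7.65 FPKM in control and 10.1 to 28.6 in RBMX total RNA, and 7.04 to 7.28 and 9.91 to 34.7 in polysomal RNA. CD68, a lysosomal protein of macrophages and other cells, made up most of it, at 5.20, 5.07 and 5.12 in control and 25.6, 23.4 and 7.58 in RBMX total RNA. The leukocyte markers PTPRC and TYROBP stood at no more than 0.021 and 0.085 FPKM in any library. The 4 fibroblast markers summed to 4.01 to 5.90 in control and 6.53 to 7.50 in RBMX total RNA, mostly COL1A1. The endothelial markers PECAM1 and CDH5 stood at no more than 0.034 and 0.019. The part of these genes in the values of the 10 was not tested.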

How the data were processed

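RNA-seq libraries were prepared by the authors from 500 ng of total or polysomal RNA with an unstranded TruSeq kit. The deposited values are FPKM for 25268 gene symbols in 12 libraries. The submitters' processing notes name CASAVA 1.8, TopHat2 2.0.13, Cufflinks 2.2.1 and Cuffnorm on hg19, and the annotation is not given in the sources used here. Fragment counts are unknown, so no depth or counting interval is given, and no count model was applied.

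The 10 genes, the pathway list and the marker lists were chosen with earlier results of these data known. The text names the 10 genes, RBMX, up to 3 pathway genes per role with the largest total RNA difference, the 5 genes most like the 10, and chromosomal neighbors. MAVS, IFNA1 and the markers named were chosen after their values were seen. An item of the pathway list is not reported here.

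Tests used log2(FPKM + 1). A mean FPKM of 0.5 or more over the libraries was required, which left 14676 genes. These were fitted with limma 3.58.1 in R 4.3.3 (lmFit, eBayes with trend), on 6 libraries for each comparison and on 12 for the interaction, with Benjamini-Hochberg adjustment and a threshold of 0.05. All 10 genes passed this filter. With 3 against 3 libraries an exact permutation test cannot go below 0.1. The fits were checked on simulated data. Plots used Python 3.11.15 and matplotlib 3.10.9. Gene positions came from GENCODE v29 on GRCh38, promoters from RefSeq.

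Total and polysomal libraries of a culture share a gradient in the methods. Over 14168 genes without small RNA genes, deviations of the 2 fractions correlated with 0.605, 0.686 and 0.835 in control cultures and 0.222, 0.0198 and 0.654 in RBMX cultures for the same number. For different numbers the highest were 0.651 (control 1 and 2) and 0.407 and 0.481 (RBMX 1 and 2), so this check did not show that the numbers pair replicates 1 and 2. Between vectors this check did not show pairing, with correlations for the same number from -0.171 to 0.340, and it cannot exclude pairing. The settings varied were the pseudocount (0.1), the filter (0.1, 1 or none), median-ratio rescaling, quantile normalization, no trend, all 12 libraries in one fit, a replicate block, and each library left out.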

Additional observations from a re-analysis of the deposited data

How the results depend on the processing

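All 10 genes kept a positive RBMX-against-control difference in both fractions under all 16 alternatives. Their median log2 difference ranged from 2.10 to 3.07 in total and from 2.16 to 3.03 in polysomal RNA. How many of the 10 passed the threshold turned on replicate 3. Leaving out each library in turn gave 0 to 9 in total and 0 to 9 in polysomal RNA, with 9 reached only without RBMX replicate 3, and leaving out replicate 3 of both vectors gave 10 in each fraction. The other alternatives gave 0, among them the replicate block, with unchanged medians of 2.44 and 2.45. Since the genes were chosen on this contrast, these counts describe the settings and nothing is read from them about the genes.

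Between polysomal and total RNA no alternative called any of the 10 genes, and some of the small differences changed sign when a library was left out, though IFI6 and IFI27 in control cells were above 0 in 16 of 16. In control cells IFI44L ranged from -0.30 to 0.00697. In RBMX cells MX2 ranged from -0.63 to 1.03 and IFI44 from -0.76 to 0.45, since leaving out 1 library of a fraction unbalances the low replicate 3. Quantile normalization moved IFI6 from 0.24 to 0.47 in control and from 0.13 to 0.85 in RBMX cells. The replicate block changed no other call. The number of fragments behind each FPKM is unknown, which limits what can be read from low values such as those of MX2 in control cells.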
